A study of Homo sapiens with 6 samples.

Results

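The 10 FGF signalling genes described here include the FGF family genes FGF2, FGF4, FGF8 and FGF13. The others are the receptors FGFR1, FGFR2, FGFR3 and FGFR4, and the feedback genes DUSP6 and SPRY4. All 10 were taken by name, as every probe whose gene name equals one of them. This gave 23 of the 47230 probes and 10 of the 31334 gene names on the array. The study measured RNA of the human embryonic stem cell line H1 on 1-colour Illumina arrays, 5 days after transfection with 2 µg of a pSUPER plasmid that expresses a short hairpin RNA (shRNA). The plasmid targeted HERVH, a family of endogenous retroviruses transcribed in these cells, in 3 samples, and luciferase in 3 control samples. All 6 samples were H1 cells at passage 32, grown without feeders on Matrigel. Their medium held 4 ng/ml of basic FGF, which is the FGF2 protein itself, and 8 ng/ml more was added before use, so both groups received FGF2 protein from outside. The labels do not say whether the 3 samples of a group came from separate cultures, so the p-values below measure the spread between these samples, which may be technical.

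Most fibroblast growth factors (FGFs) are secreted proteins that bind receptor tyrosine kinases together with heparan sulphate. The active receptor recruits adaptor proteins that switch on RAS and the RAF, MEK and ERK kinases, and ERK then induces genes whose products damp the same pathway, among them the Sprouty proteins and the dual specificity phosphatases. In culture, human embryonic stem cells are kept undifferentiated with FGF2, whereas in the embryo FGFs direct the formation and patterning of mesoderm and of the nervous system.

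The promoters of the 5 members with the larger measured changes are shown as context for those genes, since the array reads transcripts and not promoters. Each is the 250 bases before a RefSeq start on GRCh38.p14, read 5′ to 3′ on the gene's own strand. Capitals mark matches on either strand to GGGCGG, the GC box. The same windows were searched on both strands for an ETS motif, spelled CCGGAA, and for a spelling of the site of the repressor CIC, TGAATGNA. They were also searched for the box bound by the TATA-binding protein, spelled TATAAA. The ETS, CIC and TATA spellings had 0 matches in the windows shown, so no GC box overlapped another searched motif. Shorter spellings of the ETS motif, such as GGAA, were not searched. Other spellings of the CIC site were not searched either, so the windows may hold ETS or CIC sites that these letters miss.
FGF2 (chr4:122826581-122826830, plus strand): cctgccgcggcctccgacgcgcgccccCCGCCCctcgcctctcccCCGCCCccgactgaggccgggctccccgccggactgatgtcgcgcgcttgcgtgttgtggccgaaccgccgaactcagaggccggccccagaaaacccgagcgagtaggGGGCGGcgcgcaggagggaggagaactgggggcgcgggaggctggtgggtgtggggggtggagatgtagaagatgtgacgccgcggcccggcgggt
FGFR3 (chr4:1793043-1793292, plus strand): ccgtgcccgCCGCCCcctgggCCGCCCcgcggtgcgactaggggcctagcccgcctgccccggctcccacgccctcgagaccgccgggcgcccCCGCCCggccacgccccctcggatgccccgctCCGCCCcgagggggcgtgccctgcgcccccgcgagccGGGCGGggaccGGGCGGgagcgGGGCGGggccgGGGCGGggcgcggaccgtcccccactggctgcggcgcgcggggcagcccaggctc
FGFR4 (chr5:177086665-177086914, plus strand): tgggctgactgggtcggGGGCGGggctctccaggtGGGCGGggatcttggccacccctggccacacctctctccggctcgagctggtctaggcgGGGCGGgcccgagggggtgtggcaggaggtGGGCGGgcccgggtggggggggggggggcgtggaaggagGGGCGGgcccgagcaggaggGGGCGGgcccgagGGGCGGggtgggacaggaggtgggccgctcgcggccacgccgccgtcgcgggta
DUSP6 (chr12:89352502-89352751, minus strand): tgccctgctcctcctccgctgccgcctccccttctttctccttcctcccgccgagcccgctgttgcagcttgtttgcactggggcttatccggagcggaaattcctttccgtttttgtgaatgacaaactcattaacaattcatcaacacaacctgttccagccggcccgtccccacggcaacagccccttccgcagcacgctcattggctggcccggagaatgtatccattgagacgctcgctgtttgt
SPRY4 (chr5:142324248-142324497, minus strand): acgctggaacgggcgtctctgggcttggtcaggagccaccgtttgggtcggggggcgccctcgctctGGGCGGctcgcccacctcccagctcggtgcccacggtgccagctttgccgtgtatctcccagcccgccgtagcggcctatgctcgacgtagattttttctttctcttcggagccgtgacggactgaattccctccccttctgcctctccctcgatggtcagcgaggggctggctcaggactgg
The GC box had 3 matches in the FGF2 window, 8 in that of FGFR3, 7 in that of FGFR4, 1 in that of SPRY4 and 0 in that of DUSP6. Of the 35116 windows of this length in the table, 42.6% held at least 1 GC box and 14.5% the ETS motif CCGGAA. The CIC spelling TGAATGNA was in 3.25% and the box of the TATA-binding protein in 10.7%. FGFR4 has 2 starts in the table, and the first one listed is shown. Of the 10 members, 7 matched the table.

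FGF2 and FGFR3 were higher in cells given HERVH shRNA, and FGF8, FGF13, FGFR4, DUSP6 and SPRY4 were lower, each on at least 1 probe. FGF4, FGFR1 and FGFR2 had no probe past the threshold. In the limma fit over all probes, a probe was called at a Benjamini-Hochberg adjusted p under 0.05. Of the 23 member probes, 2 were called higher, 8 lower and 13 were not called, so 10 (43.5%) were called. Across all probes 24.6% were called, 12.1% higher and 12.6% lower. The share called rose with brightness: among probes above the median level it was 45.2% for the whole array, against which 8 of the 14 member probes above that level were called. The median log2 fold change was -0.14 over the 23 member probes and 0.0023 over all probes. On 12 member probes the groups did not overlap, with all HERVH shRNA samples above all controls on 2 and below them on 10, while over the array 17.3% of probes had all HERVH shRNA samples above and 17.5% had them below.

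**Figure D1:**
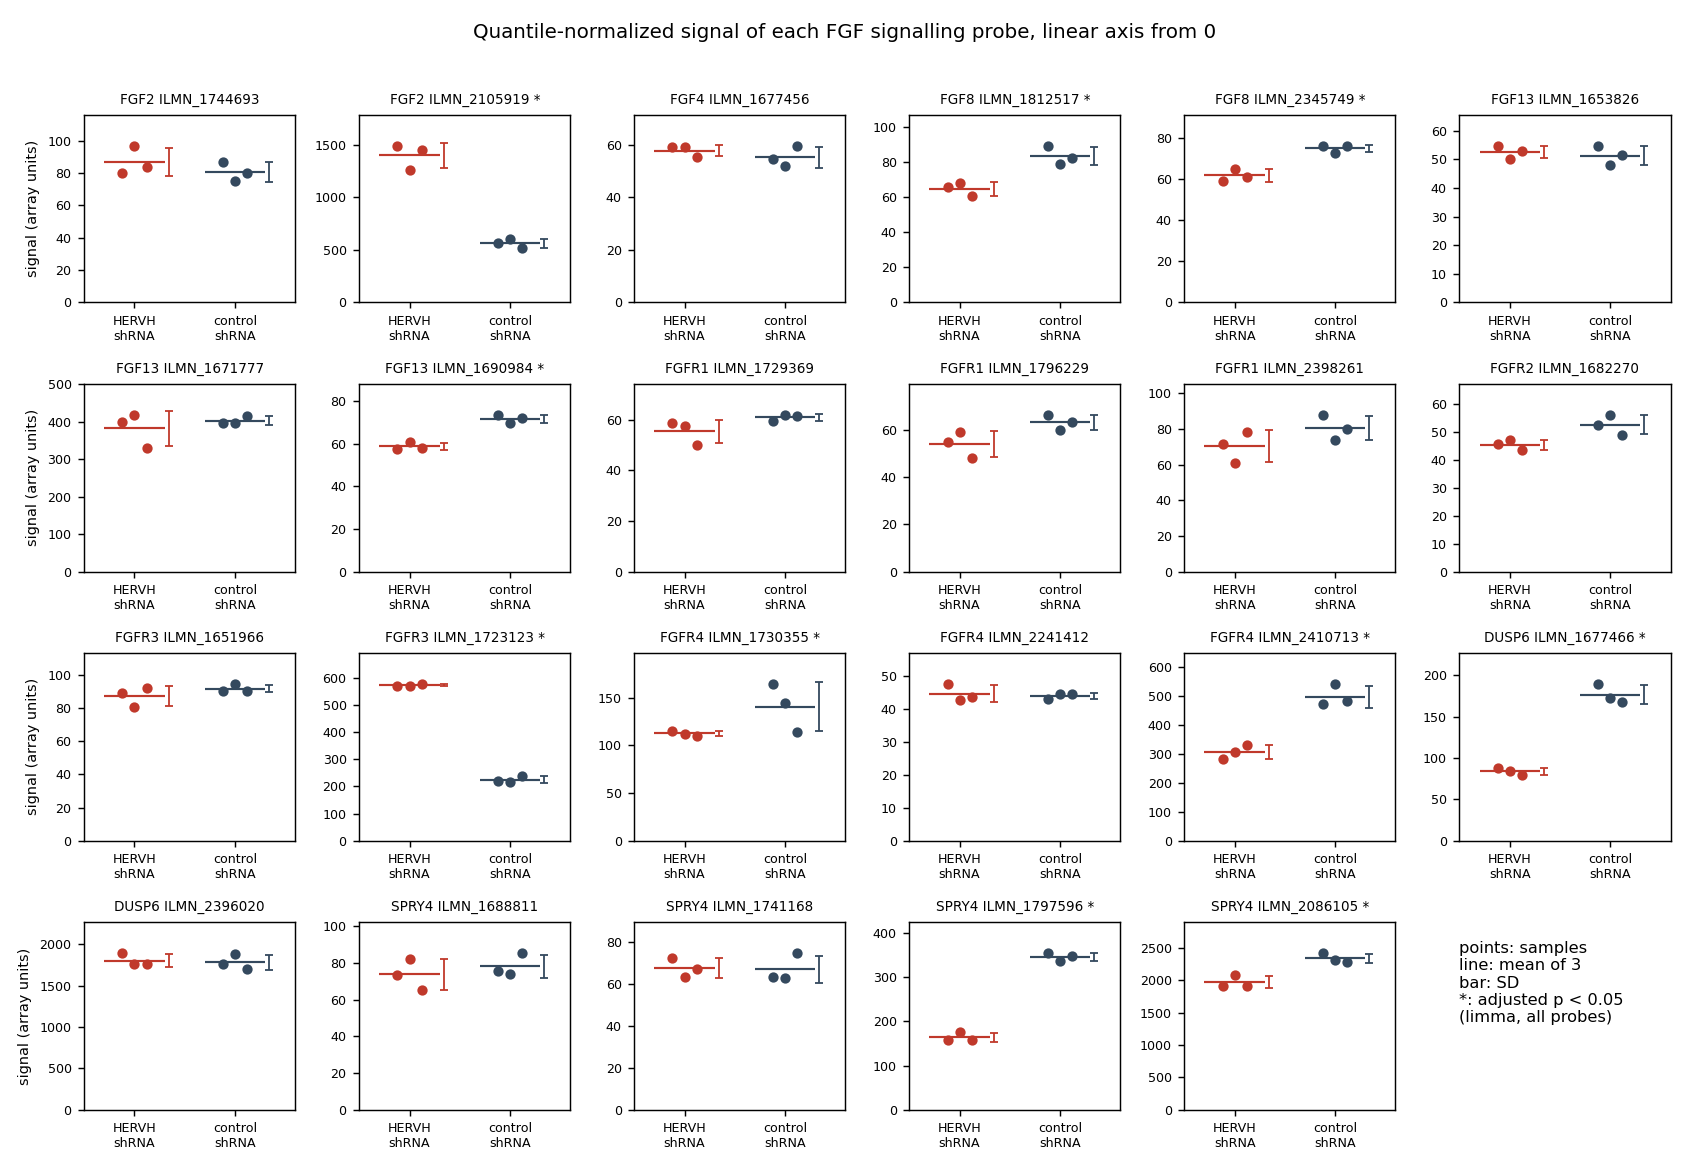
Quantile-normalized signal (array units, linear axis from 0) of each of the 23 FGF signalling probes in the 3 HERVH shRNA samples (red, left) and the 3 control shRNA samples (dark, right), with the mean as a line and the SD as a bar; an asterisk marks adjusted p under 0.05. The FGF2 probe ILMN_2105919 and the FGFR3 probe ILMN_1723123 are higher in all 3 HERVH shRNA samples, while FGFR4, DUSP6 and SPRY4 each have a probe that is lower in all 3.

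Signals below are quantile-normalized array units, which still contain the array's background. The median signal of all probes lay between 71.2 and 73.8 in the deposited columns, and the lower quartile between 58.8 and 62.5. A probe near those values may read little or no transcript, and fold changes of dim probes are understated. Whether each probe exceeded background was not analysed here.

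FGF2 encodes the ligand that is also supplied in the medium. Its probe ILMN_2105919 gave 1485, 1262 and 1443 units in the HERVH shRNA samples, against 562, 600.3 and 518 units in the control shRNA samples. The lowest HERVH shRNA sample was more than double the highest control, and the groups did not overlap. The log2 fold change was 1.32 ± 0.09 (SE, n = 3 each), or 2.49 times the control level, with an adjusted p of 1.46e-10. The second FGF2 probe, ILMN_1744693, lay close to the array's median, at 80.0, 96.6 and 83.6 units with HERVH shRNA and 87.1, 75.1 and 79.9 units with control shRNA. Its groups overlapped, and its log2 fold change of 0.10 had a 95% interval of -0.08 to 0.29.

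FGF8, a secreted ligand of gastrulation and of brain and limb patterning, was read by a pair of dim probes that were both called lower. ILMN_1812517 gave 65.8, 68.1 and 60.7 units in HERVH shRNA samples and 89.3, 79.3 and 82.8 units in controls. All HERVH shRNA samples lay below all controls, with a log2 fold change of -0.37 ± 0.08 (SE, n = 3 each) and an adjusted p of 0.00127. On ILMN_2345749 the HERVH shRNA samples read 59.1, 64.9 and 61.2 units and the controls 76.0, 72.8 and 76.1 units. These groups did not overlap either, and the log2 fold change was -0.28 (adjusted p = 0.00881). Both probes lay near the array's median.

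FGF4, a ligand of the early embryo, was not called. Its single probe ILMN_1677456 read 59.1, 59.1 and 55.4 units with HERVH shRNA and 54.5, 51.9 and 59.6 units with control shRNA, around the array's lower quartile. The groups overlapped, and the 95% interval of the log2 fold change was -0.10 to 0.23.

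FGF13 belongs to the FGF homologous factors, which stay inside the cell and bind voltage-gated sodium channels. Its brightest probe, ILMN_1671777, read 400.04, 417 and 329 units in HERVH shRNA samples and 396, 396 and 415 units in controls, with overlapping groups. Its log2 fold change was -0.08, with a 95% interval of -0.27 to 0.10. The dimmer ILMN_1690984 was called lower, with 57.5, 60.7 and 57.8 units against 73.3, 69.4 and 72.1 units in controls (log2 fold change -0.29, adjusted p = 0.00633). The third probe, ILMN_1653826, read between 50.3 and 54.7 units with HERVH shRNA and between 48.0 and 54.6 units with control shRNA, and was not called.

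Among the receptors, FGFR3 showed the largest rise of any member probe. On ILMN_1723123 the HERVH shRNA samples read 570.3, 569.96 and 577 units and the control shRNA samples 219, 216 and 239 units. The replicates of each group lay close together and the groups were far apart. The log2 fold change was 1.35 ± 0.08 (SE, n = 3 each), or 2.55 times the control level, with an adjusted p of 1.99e-11. The other FGFR3 probe, ILMN_1651966, read 88.8, 80.7 and 92.2 units with HERVH shRNA and 90.5, 94.3 and 90.2 units with control shRNA. It was not called, with a 95% interval of -0.24 to 0.09, and lay close to the array's median, so a change of transcript could be understated there.

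FGFR4 was lower. Its probe ILMN_2410713 gave 280.2, 307 and 330.3 units in HERVH shRNA samples and 470.3, 539.6 and 481 units in controls, with no overlap. The log2 fold change was -0.70 ± 0.09 (SE, n = 3 each), or 0.615 times the control level, with an adjusted p of 1.30e-06. The dimmer ILMN_1730355 read 115, 112 and 110.02 units with HERVH shRNA and 164, 144 and 113 units with control shRNA. Here the groups overlapped, because control replicate 3 lay among the HERVH shRNA samples. The log2 fold change was -0.30 (adjusted p = 0.0326), and without control replicate 1 it was -0.18 with an adjusted p of 0.246. The third probe, ILMN_2241412, was among the dimmest of the array at 42.9 to 47.5 units with HERVH shRNA and 43.1 to 44.5 units with control shRNA, and was not called.

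FGFR1 and FGFR2 were represented by dim probes and were not called. FGFR1 had 3 probes, with means of 54.2 to 70.3 units in HERVH shRNA samples and 61.0 to 80.5 units in controls. Their log2 fold changes lay between -0.23 and -0.14, with adjusted p between 0.0554 and 0.276, and HERVH shRNA samples lay below all controls on ILMN_1729369 and ILMN_1796229 but not on ILMN_2398261. The single FGFR2 probe, ILMN_1682270, gave 45.6, 47.3 and 43.7 units with HERVH shRNA against 52.7, 56.1 and 49.1 units with control shRNA, a log2 fold change of -0.21 (adjusted p = 0.0658). These signals lay near or below the median of all probes. Leaving out HERVH replicate 2 brought FGFR1 probe ILMN_1796229 to an adjusted p of 0.0238, leaving out HERVH replicate 3 brought ILMN_2398261 to 0.0412, and leaving out control replicate 3 brought the FGFR2 probe to 0.0453.

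The feedback genes fell on some probes only. SPRY4, a Sprouty protein that inhibits RAS and ERK activation, had its largest change on ILMN_1797596, which read 157, 176 and 159 units with HERVH shRNA and 354, 337 and 348 units with control shRNA. The groups did not overlap, and the log2 fold change was -1.08 ± 0.08 (SE, n = 3 each), or 0.473 times the control level, with an adjusted p of 7.63e-10. The brightest SPRY4 probe, ILMN_2086105, read 1915, 2073 and 1914 units against 2413, 2317 and 2285 units in controls. Its samples did not overlap either, and its log2 fold change was -0.25, with a 95% interval of -0.41 to -0.09 and an adjusted p of 0.0193. That call was lost when HERVH replicate 1 (adjusted p = 0.0634), HERVH replicate 3 (0.0655) or control replicate 1 (0.0729) was left out. The other SPRY4 probes, ILMN_1688811 and ILMN_1741168, had means of 73.7 and 67.4 units with HERVH shRNA and 78.1 and 66.7 units with control shRNA, and were not called.

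DUSP6 encodes a cytoplasmic phosphatase that inactivates ERK. Its dimmer probe, ILMN_1677466, read 88.1, 84.5 and 79.9 units in HERVH shRNA samples and 189, 173 and 168 units in controls. The groups were well separated, with a log2 fold change of -1.07 ± 0.08 (SE, n = 3 each), or 0.477 times the control level, and an adjusted p of 1.27e-09. The brighter probe, ILMN_2396020, read 1891, 1758 and 1762 units with HERVH shRNA and 1767, 1878 and 1702 units with control shRNA, which overlapped. Its log2 fold change of 0.02 had a 95% interval of -0.15 to 0.18. The intervals of the DUSP6 probes did not overlap, and the uncalled one was the brighter, though the difference between probes was not itself tested. FGF13 also had an uncalled probe brighter than its called one, though the intervals of these FGF13 probes overlapped. For FGF2, FGFR3, FGFR4 and SPRY4 the uncalled probes were dimmer than the called ones. A change of the transcript could be understated on such probes, but whether dimness accounts for the absent calls was not tested. The called probes of FGF8 and FGF13 were dim as well. Probe sequences were not used here, so which transcript or part of a transcript each probe reads is not known, and the levels of different probes cannot be set against each other.

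**Figure D2:**
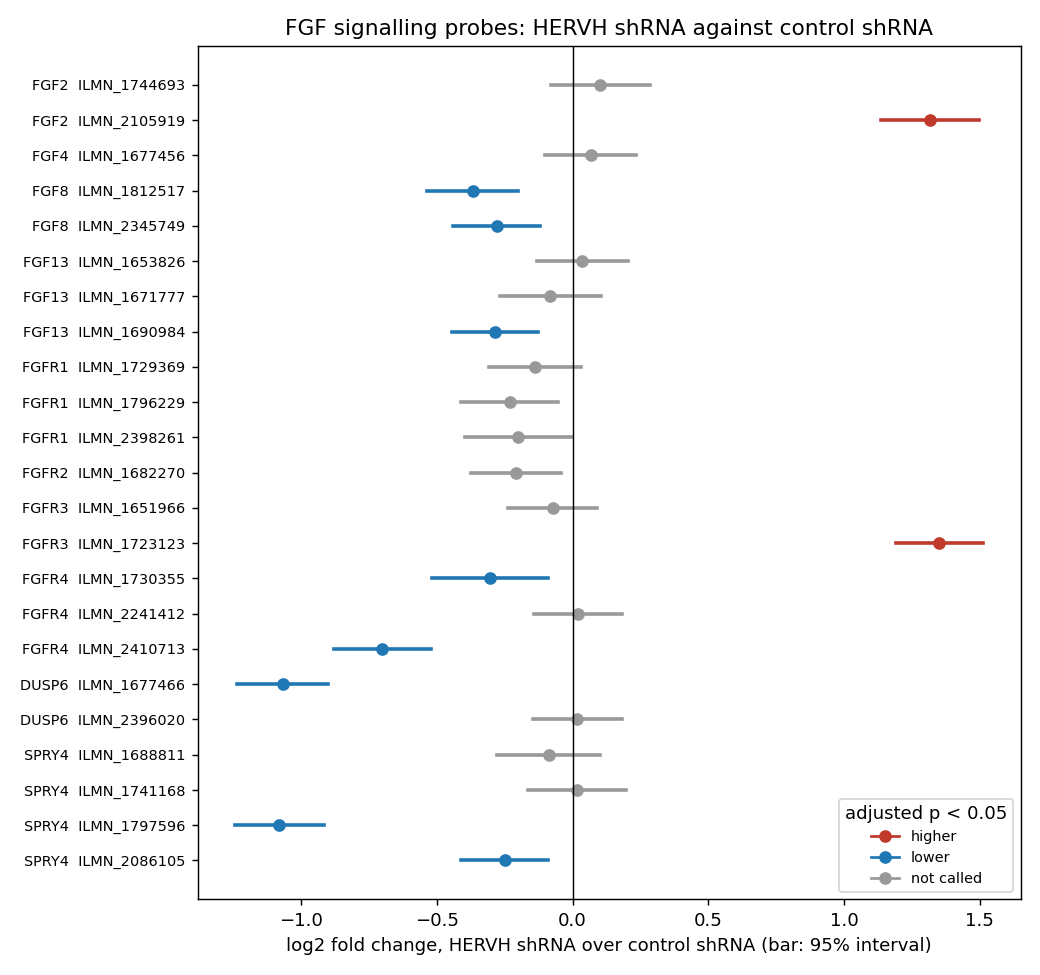
Log2 fold change of HERVH shRNA over control shRNA for each of the 23 FGF signalling probes (point) with its 95% interval from the limma fit (bar); red is called higher, blue called lower and grey not called. Probes of 1 gene lie on neighbouring rows. The uncalled probes of FGF2, FGFR3, FGFR4 and SPRY4 are dimmer than their called ones. DUSP6 and FGF13 each have an uncalled probe brighter than the called one.

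For the dimmest called probes the size of the change depended on the log scale. With 100 units added before log2, the log2 fold change was -0.59 for DUSP6 ILMN_1677466, -0.16 and -0.11 for the FGF8 probes, -0.11 for FGF13 ILMN_1690984 and -0.17 for FGFR4 ILMN_1730355, each still called.

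Other genes of the pathway were listed by role. All 79 had a probe, and of their 125 probes 28 were called higher, 18 lower and 79 were not called, so 36.8% were called, against 24.6% over the array. Among the 75 of these probes above the median level 58.7% were called, against 45.2% of all probes above it. The counts of genes by role below are to be read beside these shares. The median log2 fold change of these probes was 0.02.

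Of the 18 other genes of the FGF family, 2 were higher, 3 lower and 13 were not called. FGF19, a ligand known in the adult as a hormone that restrains bile acid synthesis, read 62.9, 66.7 and 73.4 units in HERVH shRNA samples and 159.6, 166 and 176 units in controls, a log2 fold change of -1.31 (adjusted p = 8.24e-11). FGF9, a secreted ligand of gonad and lung development, moved the other way, with 144, 161 and 159.8 units against 76.8, 72.6 and 88.4 units in controls (log2 fold change 0.97, adjusted p = 1.83e-08). FGF18 was called on 1 of its 2 probes, with a log2 fold change of 0.25 beside 0.02 on the other. FGF12 was called on 1 of its 3 probes, at -0.45 beside -0.09 and -0.14, and FGF11 on its single probe, at -0.25. Neither FGF9 nor FGF19 overlapped between groups.

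Of the 14 receptor-like proteins and cofactors, 5 genes were higher, 1 was lower and 8 were not called. SDC4, the heparan sulphate proteoglycan syndecan-4, read 964, 945 and 937 units with HERVH shRNA and 403, 379 and 371 units with control shRNA, a log2 fold change of 1.31 (adjusted p = 2.75e-11). GPC4, the proteoglycan glypican-4, averaged 6753 units with HERVH shRNA and 3412 units with control shRNA (log2 fold change 0.98, adjusted p = 1.80e-09). FLRT3, a membrane protein that binds FGF receptors, was called on 1 of its 2 probes with a log2 fold change of 1.25. FGFRL1, a receptor-like protein that lacks the kinase, had log2 fold changes of 0.93 and 0.31 on its probes, and FLRT2 one of 0.41. The single gene that fell was KAL1, which encodes the secreted protein anosmin-1, with a log2 fold change of -0.61. SDC4, GPC4, FLRT2, FLRT3 and FGFRL1 changed in the same direction as FGF2 and FGFR3.

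Of the 23 transducers, 10 genes had a probe called higher and 6 a probe called lower. The adaptor genes GRB2 and SHC1 were called in both directions on different probes. HRAS, a RAS GTPase, averaged 334 units with HERVH shRNA and 164 units with control shRNA on its brighter probe, a log2 fold change of 1.02 (adjusted p = 4.33e-09). AKT1, a kinase downstream of PI3 kinase, was higher on a pair of probes by 0.95 and 0.85 on the log2 scale. SHC1, an adaptor protein, read 7165, 7413 and 7149.95 units on ILMN_1721022 in HERVH shRNA samples and 3784, 3962 and 3844 units in controls, a log2 fold change of 0.91. MAPK3, which encodes the kinase ERK1, fell on a pair of probes, by 0.55 and 0.24 on the log2 scale.

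Of the 24 other ERK targets and feedback genes, 7 were higher, 4 lower and 13 were not called. SPRY1, the other Sprouty gene with a call, fell by 0.50 and 0.41 on a pair of its probes, with 1146, 1070.04 and 1006 units in HERVH shRNA samples and 1449, 1457 and 1643 units in controls on ILMN_2329914. SPRY2 was not called (log2 fold change -0.16, adjusted p = 0.150). IL17RD, another gene of this list, was called higher on its brightest probe, ILMN_2407851 (log2 fold change 0.55, adjusted p = 6.93e-06). Its other probes were not called, at -0.09 and -0.05. FOS, an immediate early transcription factor, read 65.8, 60.5 and 57.7 units with HERVH shRNA against 159.6, 155 and 154 units with control shRNA (log2 fold change -1.35, adjusted p = 2.49e-11), and MYC fell by 0.80 and 0.47 on its probes. PHLDA1, FOSL1 and IER3, which are induced by growth factor signalling, rose by 1.51, 1.44 and 1.10 on the log2 scale, where PHLDA1 is given by its brighter probe. ETV5, an ETS transcription factor induced by FGF, was higher by 0.86 and 0.39 on its probes, while its relative ETV4 was not called on either probe, with log2 fold changes of 0.07 and -0.01. A further relative, ETV1, was called lower on a dim probe, ILMN_1685891, with 49.3, 45.0 and 44.9 units in HERVH shRNA samples and 80.0, 59.6 and 75.3 units in controls (log2 fold change -0.62, adjusted p = 3.41e-05). EGR1, another immediate early gene, read 165, 149 and 167 units with HERVH shRNA and 155, 159 and 172 units with control shRNA and was not called. The known targets of ERK therefore did not share a direction in these samples.

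**Figure D3:**
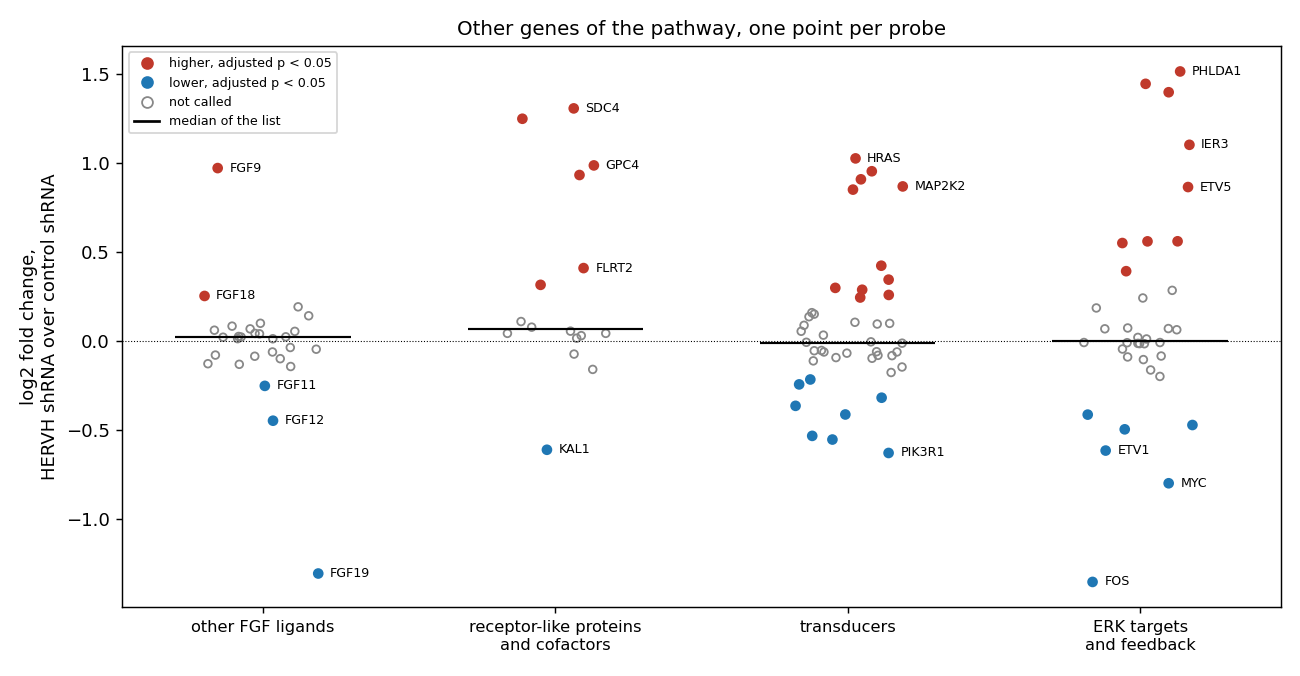
Log2 fold change of HERVH shRNA over control shRNA for the 125 probes of the other pathway genes, by role; filled points are called at adjusted p under 0.05 (red higher, blue lower), open points are not called, and the line is the median of the list. Medians lie near 0 in each of the 4 lists, with called probes on both sides.

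These changes stood beside a change in cell type markers, whose part in them was not tested. The defining stem cell gene POU5F1 averaged 1409 units with HERVH shRNA and 2870.4 units with control shRNA on its brighter probe, far above the array's median in both groups. Of 19 probes for 11 markers of undifferentiated stem cells, 0 were called higher and 12 lower, and their summed signal was 31046 to 33397 units in HERVH shRNA samples and 47745 to 48673 units in controls. That POU5F1 probe, ILMN_1705546, was at 0.493 times the control level (log2 fold change -1.02), and SOX2 at -2.12 on ILMN_1770635 but -0.44 on ILMN_2177156. The fall was not uniform over the list. NANOG was at -0.40 on ILMN_1659013 and at -0.14, not called, on ILMN_3307710. ZFP42 (log2 fold change -0.06), SALL4 (0.22) and TDGF1 (-0.02 and 0.06) had no called probe. Of 15 mesenchymal probes 7 were called higher and 0 lower, led by ACTA2, COL1A2 and TAGLN, while LUM, DCN and POSTN had no called probe. The share called was thus 63.2% for the stem cell list and 46.7% for the mesenchymal list. Over the array it was 24.6%, and 45.2% among probes above the median level. All but 3 of the stem cell probes and all but 6 of the mesenchymal probes lay above that level. The summed mesenchymal signal was 31186 to 32920 units in HERVH shRNA samples and 10237 to 11100 units in controls. Without TAGLN probe ILMN_1778668 it was 11820 to 12120 units with HERVH shRNA and 3896 to 4053 units with control shRNA. In bulk RNA, fewer cells of a type and less RNA per cell cannot be told apart.

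In the other lineage lists the share of probes called was between 16.7% and 36.4%, beside 24.6% over the whole array, and single probes carried most of the difference of the endoderm, mesoderm and neuroectoderm sums. Endoderm markers had 2 of 10 probes higher and 1, for FOXA2, lower, and their summed signal was 1546 to 1599 units in HERVH shRNA samples and 682 to 688 units in controls. AFP, the fetal alpha-fetoprotein, had a log2 fold change of 2.62, and without its probe the endoderm sums were 519.6 to 564 units with HERVH shRNA and 513 to 521 units with control shRNA. Mesoderm markers had 1 of 10 probes higher, for HAND1, and 1 lower, for EOMES, with sums of 957 to 968 units against 821 to 835 units in controls. Without HAND1 the mesoderm sums were 733 to 747 units with HERVH shRNA and 763 to 776 units with control shRNA. Neuroectoderm markers had 2 of 12 probes higher and 0 lower, with sums of 3772 to 3967 units against 1834 to 1961 units in controls. Without NES, at a log2 fold change of 1.39, the neuroectoderm sums were 762 to 773 units with HERVH shRNA and 705 to 727 units with control shRNA. Trophoblast markers had 4 of 11 probes higher and 0 lower, with sums of 947 to 969 units against 715 to 737 units in controls. Without TFAP2A probe ILMN_1765574 these were 740.3 to 764 units with HERVH shRNA and 649 to 665 units with control shRNA. No marker probe was at 0 on any array, since the signals include background.

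**Figure D4:**
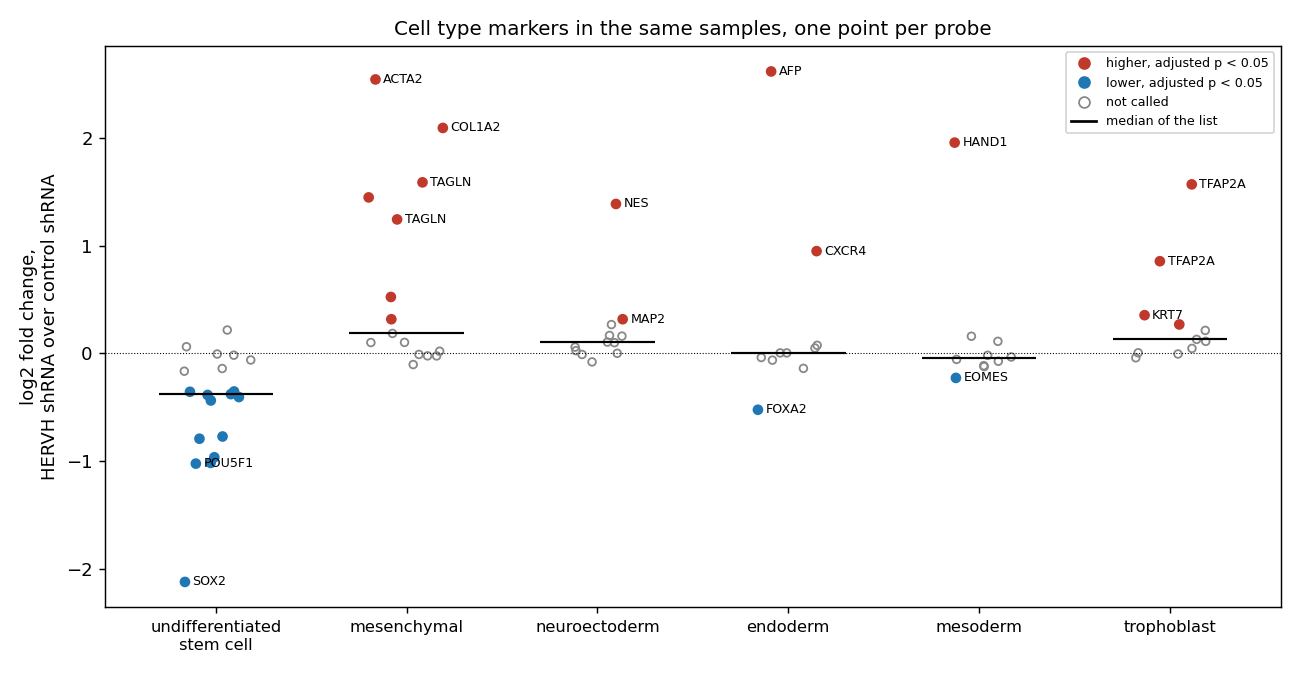
Log2 fold change of HERVH shRNA over control shRNA for probes of 6 lists of cell type markers in the same samples; filled points are called (red higher, blue lower), open points are not called, and the line is the median of the list. Stem cell markers lie at or below 0 apart from a few uncalled probes, and the called mesenchymal probes lie above 0.

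The array held 0 gene names containing HERVH, so depletion of the target itself was not read. Of 6 genes associated with HERVH or its LTR, 4 had a probe called lower and 0 had one called higher. Of their 12 probes 5 were called lower, against 12.6% over the array. Only 2 of the 12 lay below the array's median level, and above that level 45.2% of all probes were called in either direction. The median log2 fold change of the 12 probes was -0.01. RPL39L fell on ILMN_1712413 by 1.33 on the log2 scale but not on its brighter probe ILMN_2108357 (0.22, adjusted p = 0.0510), and SCGB3A2, HHLA2 and ABHD12B had called probes with log2 fold changes between -0.85 and -0.70. Samples of 1 group correlated at 0.994 to 0.995 over all probes (log2 of the deposited signal) and samples of different groups at 0.968 to 0.972. No sample stood apart from its group.

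The genes most like a member in their pattern over the 6 arrays were found from log2 levels centred on each probe's mean. For FGFR3 they were MAEL, TNFRSF21 and ASS1, whose root mean square differences from ILMN_1723123 were 0.031, 0.036 and 0.037. For FGF2 they were ANKRD29, JAG1 and ADM2, at 0.053, 0.063 and 0.064 from ILMN_2105919. For SPRY4 they were MND1, RPL12 and UBE2L6, at 0.022, 0.031 and 0.033 from ILMN_1797596. With 2 groups of 3, this likeness is mostly that of the difference between the groups.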

How the data were processed

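Biotin-labelled cRNA was made from 500 ng of total RNA and hybridised to Illumina arrays, per the labels' protocols. GenomeStudio (version not stated) is listed in the submitters' processing notes. The deposited value table holds linear intensity per probe, with columns named by sample. How the authors normalized it or treated background is not stated in the labels used. The values lie above 0, and the columns have similar but not identical distributions, so they were quantile normalized and log2 transformed here. Gene names came from the deposited non-normalized table, whose probe annotation (of no numeric scale, listed as other) was joined by probe identifier. Its 12 columns of signals and detection p-values carry running numbers that no label holds and were not used.

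Groups of 3 were compared with lmFit and eBayes of limma 3.58.1 in R 4.3.3, with no covariate and no filter, and Benjamini-Hochberg adjustment over 47230 probes. The script was tested on simulated data. Probes of a gene were kept apart. The number of arrays limits the precision. Promoter windows are from RefSeq. Samples with the same replicate number did not deviate together (correlations of 0.051, 0.0010 and 0.025). The members, the lists and the promoters were chosen with earlier results of these data known. All member probes are named, and other pathway genes were taken from those called or among the 3 largest changes of a list (1 result is not reported here), with a few uncalled relatives (SPRY2, ETV4, EGR1) added after their values were seen. Alternatives covered scaling, pseudocount, a filter, the variance model, array weights, a replicate block, background correction, the threshold and leaving out each sample.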

Additional observations from a re-analysis of the deposited data

How the results depend on the processing

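The number of probes called over the array was 11623, and between 10424 and 13448 under every alternative. Of the 10 called member probes, 8 kept direction and call in each refit that held them, which was all 15 or, for FGF13 ILMN_1690984 and FGF8 ILMN_2345749, 14 of them; FGFR4 ILMN_1730355 lost its call in 6 and SPRY4 ILMN_2086105 in 3. FGFR4 ILMN_1730355 had adjusted p of 0.0530 with array weights and of 0.0680 to 0.246 with 1 sample left out, apart from control replicate 3. With the replicate block, 11597 probes and 10 member probes were called, and it changed no call of a member. When 1 sample was left out, 8 to 11 member probes were called. With the brightest probe of each gene alone, 3 genes were lower, against 5 with every probe, because the called probes of FGF13 and DUSP6 are not the brightest of their genes; 2 genes were higher either way. Only probes above the median level left out an FGF8 and an FGF13 call, so 8 member probes were called. Normexp background correction with an offset of 50, chosen after seeing the data, called 10 member probes, with FGF2 at 1.30 and DUSP6 at -0.99 on the log2 scale. At an adjusted p under 0.1, 12 member probes were called. Without further scaling between arrays the median log2 fold change of all probes was 0.05. Dim probes are limited by the array's background, which the values still contain.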
